A study of Mus musculus with 80 samples.

Results

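The NR3 subfamily of nuclear receptors holds the receptors for steroid hormones and their closest orphan relatives. Messenger RNA of 8 of its genes was followed through 77 libraries of 5 brain regions from virgin and primiparous mice, namely Esr1, Esr2, Pgr, Nr3c1, Nr3c2, Esrra, Esrrb and Esrrg. These 8 genes were chosen by family membership, are 8 of the 27179 genes in the count table, and were matched to it by gene identifier.

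A steroid receptor is held in a ready state by Hsp90 and its cochaperones until its hormone binds, then enters or stays in the nucleus, pairs with a second receptor molecule and recruits coactivators or corepressors at DNA response elements. Esr1 and Esr2 encode estrogen receptors alpha and beta, and Pgr encodes the progesterone receptor, which estrogen induces in parts of the hypothalamus. Nr3c1 encodes the glucocorticoid receptor, present in most cell types, and Nr3c2 the mineralocorticoid receptor, which binds corticosterone with higher affinity and is best known in the brain from hippocampal neurons. Esrra, Esrrb and Esrrg encode the estrogen-related receptors, which bind no known steroid, act with the PGC-1 coactivators and regulate genes of mitochondrial energy metabolism.

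All animals were female C57BL/6 mice (C57BL/6J in the methods of the study) of matched age with no transgene. The primiparous group of 8 animals had each been housed with a male for 2 weeks from 8 weeks of age, raised 1 litter, and was taken 3 weeks after weaning according to the labels, while the methods of the study give a longer interval. The virgin group of 8 animals had no contact with males and shared a cage of females, so mating, pregnancy, lactation, pup care and male company cannot be told apart, and the stage of the estrous cycle is not given in the sources used here. Each animal gave a hypothalamus (16 libraries), an amygdala (15), a hippocampus (15), a neocortex (16) and a cerebellum (15), whole for the hypothalamus and the left side for the others, with 7 virgin libraries in the amygdala, hippocampus and cerebellum after the authors left out 3. Library totals ran from 7959192 to 37871854 counts with a median of 17623886, and since the libraries of a region were pooled for sequencing, region and sequencing pool cannot be told apart. The summed marker genes of the hypothalamus were at 1047 to 1759 CPM (counts scaled to the same library total) in the hypothalamus and at most 113 elsewhere, and those of the cerebellum were at 6330 to 7123 CPM in the cerebellum. The other regions held at most 129.6 CPM of that cerebellar list, apart from 1 hippocampal library, primiparous animal 413, at 592 CPM. The amygdala, hippocampus and neocortex lists were also higher in each library of their own region than in any library of the other regions, although no marker of these lists was at 0 in all libraries of another region. Choroid plexus markers reached 3988 CPM in the hippocampus and 3656 CPM in the cerebellum, where medians by state were 67.7 to 115 CPM. Outside the hypothalamus, pituitary markers reached 173.7 CPM in the amygdala, 62.0 in the hippocampus, 117.4 in the neocortex and 122.6 in the cerebellum. These were primiparous libraries, and medians there were 0.97 to 2.18 CPM in virgins and 1.42 to 6.31 CPM in primiparous animals. The part of this tissue in the member values was not tested.

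The DNA next to the start sites is shown for the 3 estrogen-related receptor genes, which share a region of highest level, and for Nr3c2 and Esr1, whose highest region stood apart from the others in every library. Each stretch lies upstream of a RefSeq start site in GRCm38.p6, runs 5′ to 3′ on the strand of the gene, holds no annotated exon base of that gene, and carries in capitals the matches to the GC box (GGGCGG) on either strand. The stretches of Esr1, Nr3c2 and Esrrg precede start sites that lie inside the annotated span of the gene, downstream of its first annotated base.
Esrra, chr19:6921814-6922058, minus strand: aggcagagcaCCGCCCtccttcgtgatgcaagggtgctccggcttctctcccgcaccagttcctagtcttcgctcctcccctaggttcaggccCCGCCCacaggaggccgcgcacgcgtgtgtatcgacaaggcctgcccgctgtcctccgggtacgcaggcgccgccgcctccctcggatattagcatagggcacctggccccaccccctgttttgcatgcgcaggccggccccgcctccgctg
Esrrb, chr12:86360867-86361116, plus strand: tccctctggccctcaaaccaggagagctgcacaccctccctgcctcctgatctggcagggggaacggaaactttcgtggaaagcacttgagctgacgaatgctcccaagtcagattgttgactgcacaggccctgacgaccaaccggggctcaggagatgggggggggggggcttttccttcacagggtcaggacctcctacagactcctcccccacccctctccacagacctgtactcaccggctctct
Esrrg, chr1:187651508-187651757, plus strand: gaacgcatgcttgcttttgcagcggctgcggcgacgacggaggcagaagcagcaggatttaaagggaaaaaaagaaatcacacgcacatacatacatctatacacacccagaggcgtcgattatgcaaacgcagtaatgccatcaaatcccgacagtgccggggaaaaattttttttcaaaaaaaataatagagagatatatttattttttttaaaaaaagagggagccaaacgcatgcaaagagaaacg
Nr3c2, chr8:76902080-76902287, plus strand: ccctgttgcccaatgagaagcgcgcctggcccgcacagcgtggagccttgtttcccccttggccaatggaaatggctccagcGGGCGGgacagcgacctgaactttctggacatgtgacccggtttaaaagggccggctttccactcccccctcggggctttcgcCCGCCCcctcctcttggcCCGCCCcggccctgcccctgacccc
Esr1, chr10:4709908-4710154, plus strand: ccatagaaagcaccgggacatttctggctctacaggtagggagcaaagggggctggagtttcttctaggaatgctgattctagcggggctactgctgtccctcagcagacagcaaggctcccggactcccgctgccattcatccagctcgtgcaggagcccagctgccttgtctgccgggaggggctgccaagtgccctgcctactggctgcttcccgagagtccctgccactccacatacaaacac
Windows of 300 bases, 250 before and 50 after a start site, were searched on both strands at 12 start sites of 7 of the genes. The single estrogen response site AGGTCA was in none of the 12 windows and in 16.3% of the 32851 windows searched, and the longer estrogen-related receptor element TCAAGGTCA, which contains that site, was in none of the 12 and in 0.423% of all. The single corticosteroid response site AGAACA was in 1 of the 12, the second window of Esrrb, beside 19% of all windows. The palindromic full estrogen and corticosteroid response elements, each made of its single site and the inverted copy 3 bases apart, were also absent from these windows, and were found in 0.0213% and 0.00913% of all. The GC box, a site for Sp-family factors, was found in Pgr, Nr3c2, Esrra and 2 windows of Esrrg, beside 35.7% of all windows, and the TATA box TATAAA in Pgr and the first window of Esrrg, beside 13.6%. GC content was 65.67% in the window of Nr3c2 and 66% in that of Esrra against a median of 52.67% over all windows, and 43.67% in that of Pgr. These matches are descriptions of letters in the windows.

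Levels were first compared between regions, which asks where in the brain each receptor gene is transcribed. Between genes, levels are given per length, as CPM per kilobase of exon (RPKM). Nr3c1 was the highest of the 8 genes in the hypothalamus at 16.4 ± 1.89 RPKM (SD, n = 16) and in the amygdala at 12.6 ± 1.06 RPKM (n = 15). Esrra was the highest in the neocortex at 17.1 ± 2.67 RPKM (n = 16) and the cerebellum at 23.9 ± 3.12 RPKM (n = 15). Nr3c2 was the highest in the hippocampus at 22.3 ± 1.75 RPKM (n = 15). Both estrogen receptor genes were among the lowest everywhere, and neither exceeded 1.43 RPKM in any region's mean. Thus, per exon length, the highest member was a corticosteroid receptor gene in the hypothalamus, amygdala and hippocampus, and Esrra in the other regions. Without division by length, Nr3c1 was above Esrra there too, at 113 against 75.2 CPM in the neocortex and 131 against 105 CPM in the cerebellum. The order of genes within a region was not tested.

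**Figure D1:**
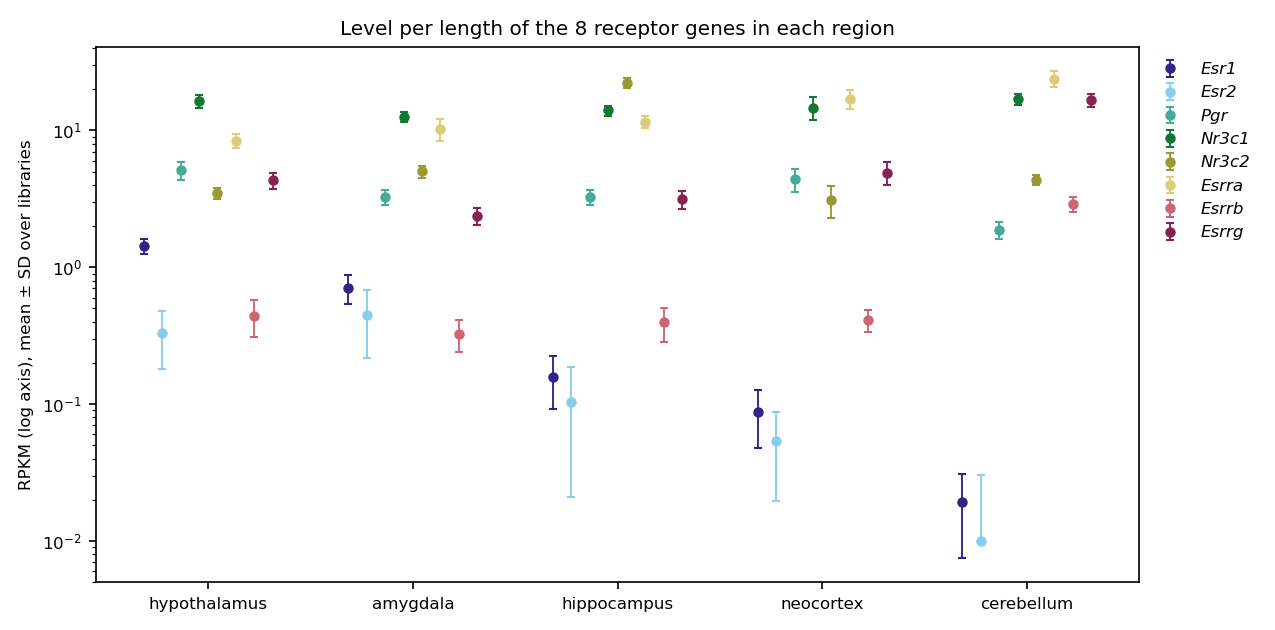
Level per length (RPKM, log axis) of the 8 receptor genes in the 5 regions. Points are means over the 15 or 16 libraries of a region and bars are SD, with the lower bar left off where it would reach 0. Nr3c2 in the hippocampus (22.3 RPKM) and Esrra in the cerebellum (23.9 RPKM) stand highest, and Esr1 and Esr2 fall towards 0 in the cerebellum.

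Esr1 lies on chromosome 10 (4611593 to 5005614, plus strand, mm10) and fell steeply from hypothalamus to cerebellum. Its lowest, median and highest values were 14.3, 19.4 and 24.9 CPM in the hypothalamus and 4.27, 9.48 and 12.8 CPM in the amygdala. They were 0.625, 1.996 and 3.67 CPM in the hippocampus, 0.196, 1.16 and 1.95 CPM in the neocortex, and 0, 0.238 and 0.679 CPM in the cerebellum. No hypothalamic library overlapped with any amygdalar one, and no amygdalar library with any from the hippocampus. The mean fell from 19.6 CPM in the hypothalamus to 9.71 CPM in the amygdala, a fitted log2 difference of 0.87 (SE 0.16, edgeR adjusted p = 1.04e-06), and from there to 2.17 CPM in the hippocampus, a log2 difference of 2.15 (SE 0.17). Only hypothalamic and amygdalar libraries reached 5 CPM, so Esr1 passed the filter of 5 CPM in 8 libraries through those regions. Its tests of those regions against the others are not independent of that filter. All 10 region pairs passed for Esr1 at an edgeR adjusted p under 0.05, beside 58.7% to 81.1% of all 13016 tested genes in the 10 pairs. These shares of all genes were 71% for hypothalamus against amygdala, 73% against hippocampus, 77.7% against neocortex and 81.1% against cerebellum. For the amygdala they were 58.7% against hippocampus, 62.5% against neocortex and 80.2% against cerebellum, and for the rest 67% for hippocampus against neocortex, 78.7% for hippocampus against cerebellum and 79.9% for neocortex against cerebellum. The 3 genes most like Esr1 over the 77 libraries, by Pearson's r of log2(CPM + 1), were Ntrk2 (r = 0.973), Plxnc1 (r = 0.973) and AW551984 (r = 0.972), points that share region, sequencing pool and depth. The counts of region pairs called were the same for every member without the hippocampal library of primiparous 413.

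Esr2 (chromosome 12, 76120419 to 76177259, minus strand) had the lowest counts of the members in every region and did not reach the filter of 5 CPM in 8 libraries. Its tests come from a fit with a looser filter of 10 counts over the libraries. The lowest, median and highest values were 0.222, 1.67 and 2.80 CPM in the amygdala, 0.523, 1.06 and 2.06 CPM in the hypothalamus, and 0.0411, 0.341 and 1.19 CPM in the hippocampus. The means of amygdala and hypothalamus, 1.51 and 1.11 CPM, did not pass the test of their difference (log2 0.60, SE 0.32, edgeR adjusted p = 0.0994). In the cerebellum 11 of 15 libraries had no count, which allows up to 0.121 to 0.345 CPM in those libraries, and all 15 held 12 counts together. Of the 10 region pairs 8 passed for Esr2, and the hippocampus and neocortex also did not differ at the threshold (adjusted p = 0.0673). Among its most like genes were Frem3 (r = 0.839) and Arhgap6 (r = 0.817), a lower r than the top genes of Esr1 or Pgr reached.

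Pgr (chromosome 9, 8899833 to 8968611, plus strand) was present in every region. The lowest, median and highest values were 32.3, 43.9 and 54.0 CPM in the hypothalamus, 24.8, 39.0 and 47.3 CPM in the neocortex, and 12.2, 16.2 and 21.9 CPM in the cerebellum. Those of the hippocampus (23.4, 28.2 and 33.4 CPM) and the amygdala (22.2, 27.9 and 33.6 CPM) overlapped almost wholly, with a log2 difference of 0.01 (SE 0.08). Hypothalamus and neocortex also did not differ beyond their spread (log2 0.11, SE 0.07, edgeR adjusted p = 0.154), whereas the neocortex exceeded the hippocampus by 0.39 (SE 0.08, adjusted p = 6.97e-06). In 8 of 10 pairs the difference passed, and the cerebellum was the lowest, with no library as high as the lowest of the amygdala. The nearest genes by likeness were a gene without a symbol (r = 0.934), Cbln4 (r = 0.920) and Hrasls (r = 0.914).

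Nr3c1 (chromosome 18, 39410545 to 39519421, minus strand) was the most even of the 8 genes, and its highest region mean was 1.36-fold its lowest. The lowest, median and highest values were 112, 132 and 155 CPM in the cerebellum and 92.4, 124.5 and 146 CPM in the hypothalamus. They were 78.9, 114 and 150 CPM in the neocortex, 89.0, 111 and 122 CPM in the hippocampus, and 77.5, 96.5 and 107 CPM in the amygdala. Only 5 of 10 pairs passed, and among neighbours in the order of levels the single step that did was from hippocampus to amygdala (log2 0.16, SE 0.06, edgeR adjusted p = 0.0221). Cerebellum, hypothalamus, neocortex and hippocampus followed each other with no step beyond the spread. Pcdh9 (r = 0.856), Glrb (r = 0.836) and Sacm1l (r = 0.824) were the most like genes.

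Nr3c2 (chromosome 8, 76899442 to 77245012, plus strand) stood apart in the hippocampus. There the lowest, median and highest values were 117, 145 and 160.1 CPM, against 25.9, 31.65 and 38.1 CPM in the amygdala and 24.8, 27.4 and 33.3 CPM in the cerebellum. The hypothalamus held 18.9, 22.15 and 26.2 CPM and the neocortex 9.25, 19.6 and 28.1 CPM. The lowest hippocampal library thus lay above the highest of any other region. The hippocampal mean of 145 ± 11.3 CPM (SD, n = 15) exceeded the amygdalar mean of 32.6 ± 3.29 CPM (n = 15) by a log2 difference of 2.16 (SE 0.08, edgeR adjusted p = 1.17e-39), and 9 of 10 pairs passed, the exception being hypothalamus against neocortex (adjusted p = 0.587). Within each library, the RPKM of Nr3c2 over that of Nr3c1 was 1.26 to 1.79 in the hippocampus, and at most 0.503 in the amygdala, 0.317 in the cerebellum, 0.279 in the neocortex and 0.254 in the hypothalamus. The mineralocorticoid receptor RNA was the more abundant of the pair in all 15 hippocampal libraries and in no library of the other 4 regions. An annotated non-coding gene on the other strand, Gm10649, shares 3.82% of the Nr3c2 exon bases, and whether counting used strand is not given in the sources used here. Dock4 (r = 0.963) and Trim2 (r = 0.955) were most like it.

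The estrogen-related receptor genes were each highest in the cerebellum, but by different margins. Esrra (chromosome 19, 6910977 to 6921813, minus strand) descended in steps. Its lowest, median and highest values were 76.5, 105.5 and 126 CPM in the cerebellum, 60.6, 75.0 and 105 CPM in the neocortex, and 43.4, 50.1 and 63.3 CPM in the hippocampus. The amygdala had 32.8, 43.96 and 64.6 CPM and the hypothalamus 27.8, 36.6 and 45.1 CPM. Neighbouring regions overlapped in each case, yet all 10 pairs passed, the smallest step being from hippocampus to amygdala (log2 0.19, SE 0.06, edgeR adjusted p = 0.00834). Trmt112, which lies on the other strand, and Mir6990 share 3.74% of its exon bases. Fam57b (r = 0.955), Scrt1 (r = 0.944) and Atf4 (r = 0.940) were the most like genes.

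Esrrb (chromosome 12, 86361117 to 86521628, plus strand), best known from embryonic stem cells and the inner ear, was far higher in the cerebellum than elsewhere. The cerebellum held 13.35, 17.5 and 21.3 CPM as lowest, median and highest, while the highest library elsewhere was 3.81 CPM, in the hypothalamus. The cerebellar mean was 17.6 ± 2.17 CPM (SD, n = 15) and the hypothalamic mean 2.68 ± 0.817 CPM (n = 16), a log2 difference of 2.69 (SE 0.12, edgeR adjusted p = 1.72e-33). No library outside the cerebellum reached 5 CPM, so Esrrb passed the filter of 5 CPM in 8 libraries through the cerebellum alone. Its tests against the cerebellum are therefore not independent of that filter and add no support to the values. The 4 lower regions, with means of 1.98 to 2.68 CPM, showed no step beyond the spread between neighbours, and 6 of 10 pairs passed. Skor2, a gene of developing Purkinje cells, was the most like Esrrb (r = 0.966), followed by Gm13944 (r = 0.962) and Pkp3 (r = 0.962).

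Esrrg (chromosome 1, 187608791 to 188214885, plus strand) held 88.4, 100.2 and 122 CPM in the cerebellum as lowest, median and highest, and 20.7, 30.5 and 40.04 CPM in the neocortex. The hypothalamus had 19.7, 27.7 and 31.8 CPM, the hippocampus 14.1, 19.7 and 26.6 CPM, and the amygdala 11.75, 14.5 and 18.8 CPM. Every cerebellar library exceeded every library of the other 4 regions. The cerebellar mean of 104 ± 11.6 CPM (SD, n = 15) was above the neocortical mean of 30.6 ± 5.81 CPM (n = 16) by a log2 difference of 1.65 (SE 0.07, edgeR adjusted p = 2.41e-36), and all 10 pairs passed. Ankrd40 (r = 0.960), Kcnc1 (r = 0.957) and Aplp2 (r = 0.957) were the most like genes, and Kcnc1 encodes a potassium channel of fast-spiking neurons. In bulk tissue, a smaller number of expressing cells and less RNA in each cell cannot be told apart, here and in the comparison of states.

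**Figure D2:**
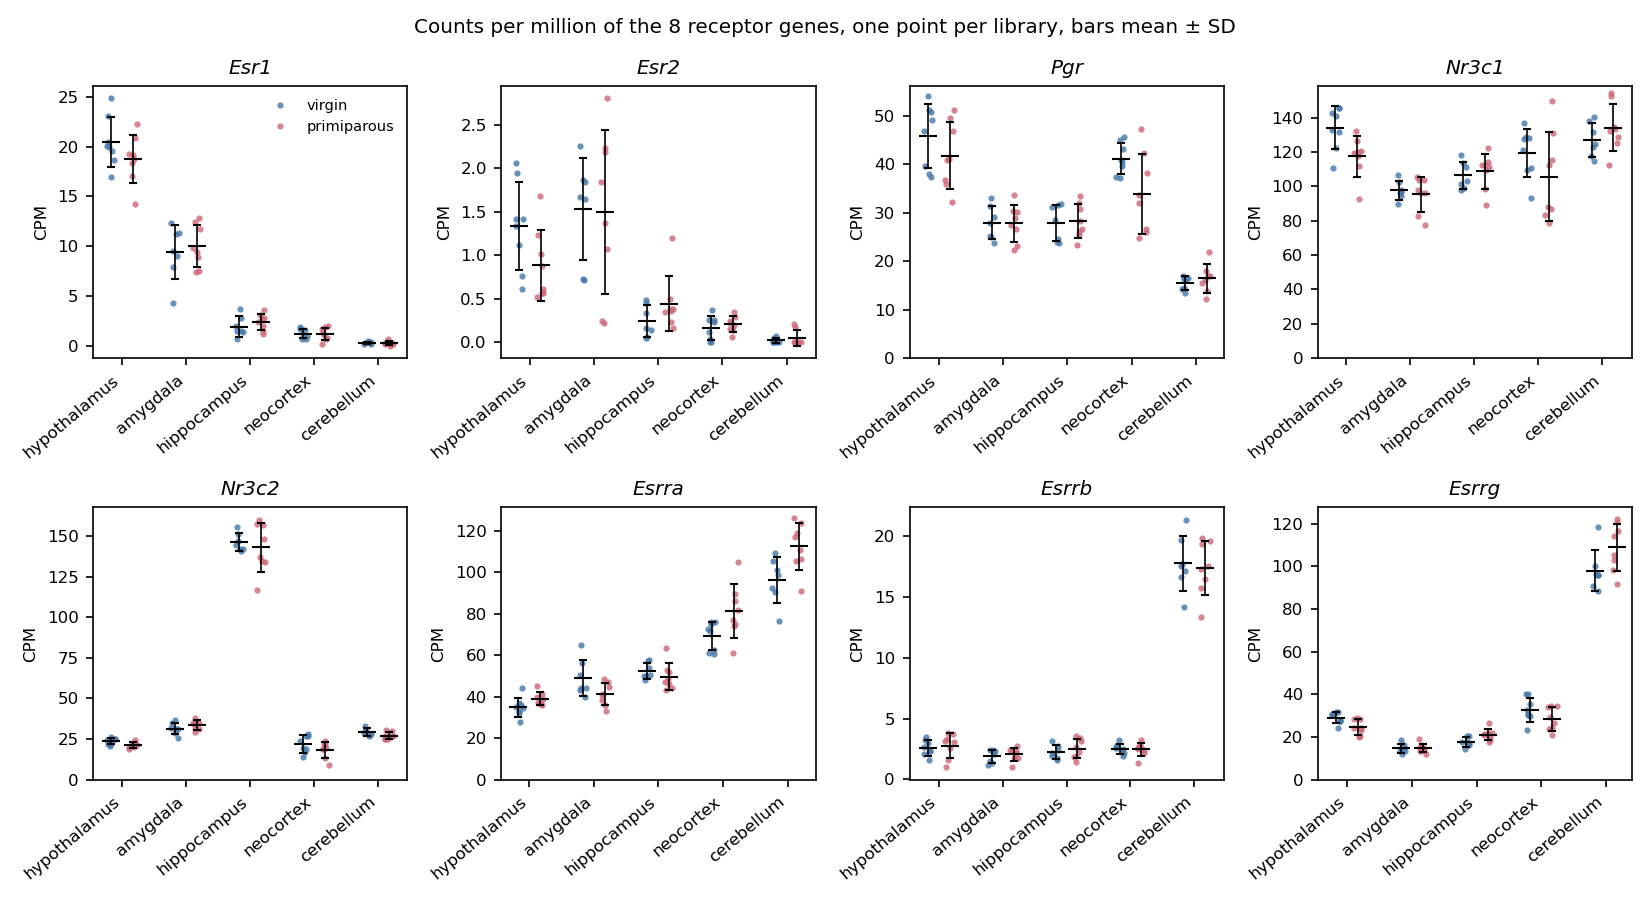
CPM of the 8 receptor genes in each library, by region, with virgin libraries in blue and primiparous ones in red (7 or 8 per group). Black bars give mean ± SD. Regions separate widely for Nr3c2, at 117 to 160.1 CPM in the hippocampus, and little for Nr3c1, and the states overlap in each panel and region.

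Next, primiparous animals were compared with virgins within each region, which asks whether a difference in receptor RNA remained after the first litter had been weaned. In the hypothalamus 2 of the 8 genes, Nr3c1 and Esrrg, were lower in primiparous animals at an edgeR adjusted p under 0.05. At that threshold 22.6% of all tested genes were called in the hypothalamus and 11.8% were called lower, so 2 of 8 is near the background. Both stayed called in DESeq2, beside 28.1% of its genes, 1 of them in limma-voom, beside 19.8%, and neither with the number series of the animals as covariate, beside 0.023%, or with an offset for gene length and GC, beside 3.2%. For every member the values of the states overlapped in every region.

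For Nr3c1 in the hypothalamus the lowest, median and highest values were 111, 137 and 146 CPM in the 8 virgins and 92.4, 119.6 and 132.1 CPM in the 8 primiparous animals. All 8 primiparous values lay below the virgin mean, and 1 lay below every virgin. The mean was 134 ± 12.4 CPM in virgins and 117.5 ± 11.8 CPM in primiparous animals (SD, n = 8 each). The log2 fold change was -0.21 (SE 0.07, edgeR adjusted p = 0.0234), a fold of 0.863. The 2 virgins with animal numbers of 3 digits had 132 and 111 CPM, against 92.4 to 132.1 CPM in the 7 primiparous animals of that series. In the series with 4 digits the single primiparous animal had 119.9 CPM and the 6 virgins 122.5 to 146 CPM. With the number series as a covariate the fold change was -0.12 (adjusted p = 0.505), and with an offset that removed library-specific trends along gene length and GC content it was -0.03 (adjusted p = 0.747). What the 2 number series stand for is not given in the labels, and their part in the result was not tested further.

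For Esrrg in the hypothalamus the lowest, median and highest values were 24.4, 29.0 and 31.8 CPM in virgins and 19.7, 24.0 and 29.1 CPM in primiparous animals. Of the 8 primiparous values 7 lay below the virgin mean and 5 below every virgin. The mean was 28.9 ± 2.555 CPM in virgins and 24.65 ± 3.625 CPM in primiparous animals (SD, n = 8 each), a log2 fold change of -0.24 (SE 0.09, edgeR adjusted p = 0.0437). Within the 3-digit series the 2 virgins had 30.1 and 27.4 CPM and the 7 primiparous animals 19.7 to 29.1 CPM, while the 4-digit primiparous animal had 28.4 CPM beside 24.4 to 31.8 CPM in 6 virgins. The call was lost in limma-voom (log2 -0.21, adjusted p = 0.0764), with the series covariate (-0.18, adjusted p = 0.436) and with the length and GC offset (-0.07, adjusted p = 0.685).

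Neither call rested on every library. Leaving out 1 hypothalamic library at a time, Nr3c1 was called in 13 of 16 fits, and lost without virgin 4487, 4489 or 4490, with a highest adjusted p of 0.0524. Esrrg was called in 5 of 16 fits, those without primiparous 413, 418 or 4493 or virgin 409 or 4489, with a highest adjusted p of 0.0895 in the others. Fold changes kept their sign throughout, at -0.25 to -0.17 for Nr3c1 and -0.28 to -0.20 for Esrrg on the log2 scale.

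**Figure D3:**
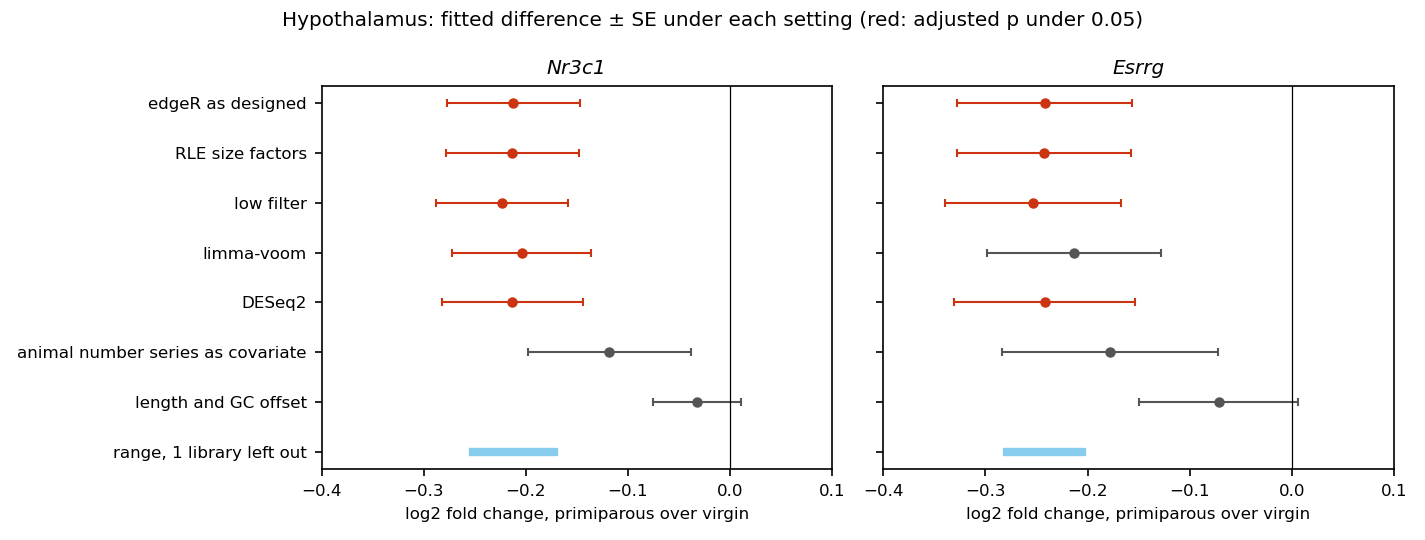
Fitted log2 fold change of Nr3c1 and Esrrg in the hypothalamus, primiparous over virgin, with its SE under each setting and as a bar over the fits with 1 library left out. Red points have an adjusted p under 0.05. The points with the series covariate (-0.12 and -0.18) and with the length and GC offset (-0.03 and -0.07) lie nearest to 0.

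The other 6 members did not pass in the hypothalamus. Nr3c2 had 20.6, 24.1 and 26.2 CPM in virgins and 18.9, 21.5 and 24.5 CPM in primiparous animals as lowest, median and highest (log2 -0.17, SE 0.07, edgeR adjusted p = 0.105). Esr1 had 16.9, 20.03 and 24.9 CPM against 14.3, 18.9 and 22.25 CPM (log2 -0.15, SE 0.09, adjusted p = 0.239), and Pgr had 37.4, 48.0 and 54.0 CPM against 32.3, 40.9 and 51.2 CPM (log2 -0.15, SE 0.10, adjusted p = 0.261). Esrra was the one member with all 8 primiparous values above the virgin mean, at 27.8, 34.6 and 44.02 CPM in virgins and 35.7, 37.85 and 45.1 CPM in primiparous animals. Its log2 difference of 0.13 (SE 0.07, adjusted p = 0.204) passed only without virgin 409 (adjusted p = 0.0464). Esr2, at 0.615 to 2.06 CPM in virgins and 0.523 to 1.68 CPM in primiparous animals, had a log2 difference of -0.64 (SE 0.35, adjusted p = 0.233), and 8 to 48 or 7 to 21 counts a library set its precision. The 95% intervals of these log2 differences ran from -0.31 to -0.02 for Nr3c2, from -0.33 to 0.03 for Esr1, from -0.02 to 0.28 for Esrra, from -0.34 to 0.57 for Esrrb, from -0.34 to 0.04 for Pgr and from -1.32 to 0.04 for Esr2.

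Outside the hypothalamus no member passed in edgeR, limma-voom or DESeq2, which gave no adjusted p for some members in the amygdala, hippocampus and cerebellum. In edgeR 0% of genes were called in the amygdala, hippocampus and neocortex, where 11.9%, 7.38% and 9.8% had an unadjusted p under 0.05. limma-voom also called 0 genes in these 3 regions, and DESeq2 called 106 (1.78%), 13 (0.124%) and 0. In the cerebellum edgeR called 0.707% of genes, limma-voom 0.553%, DESeq2 4.04%, and edgeR with the length and GC offset 3.34%, in each case with no member. With the series covariate 0.108% of genes were called in the amygdala, again with no member, although Esrra there moved to a log2 difference of -0.47 (adjusted p = 0.0503). Among the members, unadjusted edgeR p values under 0.05 outside the hypothalamus belonged to Esrra and Esrrg alone, and 2538 of all 13016 genes had one in the cerebellum. Esrra in the amygdala was at 39.97, 44.3 and 64.6 CPM in virgins and 32.8, 41.1 and 48.4 CPM in primiparous animals, all 8 of which lay below the virgin mean (log2 -0.24, SE 0.10, edgeR adjusted p = 0.327). In the neocortex it was at 60.6, 72.0 and 75.8 CPM against 60.8, 79.3 and 105 CPM, with 7 of 8 above (log2 0.26, SE 0.09, adjusted p = 0.479). In the cerebellum it was at 76.5, 98.7 and 109 CPM against 91.0, 114 and 126 CPM, again with 7 of 8 above (log2 0.24, SE 0.08, adjusted p = 0.108). The sign for Esrra was thus negative in the amygdala and positive in the other two. Esrra in the cerebellum passed only without primiparous 4493 (adjusted p = 0.0239). Esrrg had 14.1, 17.6 and 20.5 CPM in hippocampal virgins and 17.8, 21.1 and 26.6 CPM in primiparous animals, all 8 above the virgin mean (log2 0.27, SE 0.09, adjusted p = 0.564). The highest of these values was that of primiparous 413, the library with cerebellar markers at 592 CPM, and without it the log2 difference was 0.22 (edgeR adjusted p = 0.42). Of the glial markers in the cerebellum, 1 of 7 genes was called higher in each of the oligodendrocyte (Mbp), astrocyte (Aqp4) and microglia (C1qa) lists, and none with the series covariate. Their summed levels ran over 4547 to 6030, 5373 to 6308 and 121.5 to 146 CPM in virgins and 5463 to 7661, 5591 to 6550 and 139 to 171 CPM in primiparous animals, and their part in the cerebellar values was not tested. In the cerebellum Esrrg was at 88.4, 96.0 and 118 CPM against 91.5, 109.7 and 122 CPM (log2 0.17, SE 0.07, adjusted p = 0.191).

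**Figure D4:**
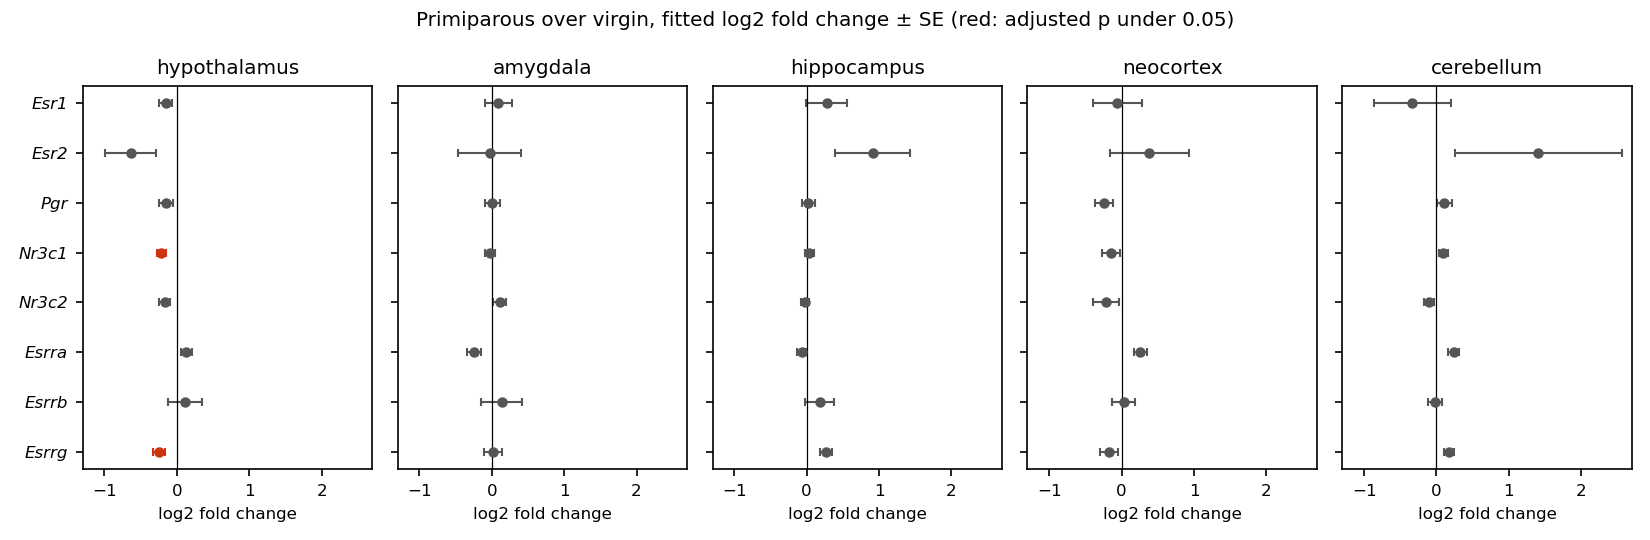
Fitted log2 fold change ± SE of the 8 receptor genes, primiparous over virgin, in each region. Red points have an edgeR adjusted p under 0.05 and are Nr3c1 (-0.21) and Esrrg (-0.24) in the hypothalamus, while the wide bars belong to Esr2, the gene with the fewest counts.

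No sex steroid or corticosteroid receptor gene had an unadjusted edgeR p under 0.05 outside the hypothalamus, while limma-voom gave Esr2 in the hippocampus 0.0387 (adjusted p = 0.695) and Pgr in the neocortex 0.0446 (adjusted p = 0.509). In the hippocampus, Nr3c2 had 141, 145 and 156 CPM in virgins and 117, 143 and 160.1 CPM in primiparous animals (log2 -0.03, SE 0.06, 95% interval -0.14 to 0.08). Esr1 in the amygdala had 4.27, 9.48 and 12.4 CPM against 7.38, 9.62 and 12.8 CPM (log2 0.09, SE 0.18, 95% interval -0.27 to 0.45). Pgr in the neocortex ranged over 37.2 to 45.5 CPM in virgins and 24.8 to 47.3 CPM in primiparous animals, 5 of which were below every virgin (log2 -0.24, SE 0.12, edgeR adjusted p = 0.5004). The interval for Nr3c2 in the hippocampus was narrower than that for Esr1, which had fewer counts.

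Whether the state difference itself was another in the hypothalamus than elsewhere was tested as an interaction, in 4 comparisons that share the hypothalamic libraries. Of 32 member values 5 passed. For Esrrg the hypothalamic difference lay below that of the hippocampus by 0.52 (SE 0.13, edgeR adjusted p = 0.00607) and below that of the cerebellum by 0.41 (SE 0.11, adjusted p = 0.0117) on the log2 scale. For Nr3c1 it lay below that of the hippocampus by 0.26 (SE 0.09, adjusted p = 0.0470) and below that of the cerebellum by 0.31 (SE 0.09, adjusted p = 0.0232). For Esrra it lay above that of the amygdala by 0.38 (SE 0.13, adjusted p = 0.0353), a call that was lost with the low filter and held with each animal as a replicate block at an adjusted p of 0.0499. Nr3c1 against the hippocampus was lost with the low filter too. Beside these, 18.2% of all genes were called against the amygdala, 17.2% against the hippocampus and 15.5% against the cerebellum. Against the neocortex edgeR called 0% and no member, with 336 genes at an unadjusted p under 0.05, and the difference for Nr3c1 was -0.07 (SE 0.15). Without the hippocampal library of primiparous 413, Esrrg against the hippocampus stayed called (-0.47, adjusted p = 0.00760) and Nr3c1 did not (-0.26, adjusted p = 0.0533), beside 19.2% of all genes. With each animal as a replicate block, 4 of the 5 stayed called and Nr3c1 against the hippocampus did not (adjusted p = 0.0602). With the block and the length and GC offset together none of the 5 did, at adjusted p from 0.126 to 0.899. The shares of all genes given above come from fits with the main filter and without block or offset. The counts under the other fits are therefore not set against a background share.

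Marker lists of this and other tissue were counted in the hypothalamus beside the 22.6% of all genes called there. The choroid plexus list had a median log2 fold change of -0.51 and 1 of 7 tested genes called, Ttr, which was higher at 1.05 ± 0.606 CPM in virgins and 3.30 ± 2.06 CPM in primiparous animals (SD, n = 8 each), and its summed level ran over 37.7 to 52.8 and 36.15 to 65.2 CPM. Blood genes had 2 of 3 called higher, with sums of 25.2 to 53.5 and 32.0 to 103.2 CPM. Among 12 tested hypothalamic markers Pmch (204 against 141 CPM) and Sim1 (log2 -0.32) were called lower, with sums of 1047 to 1323 and 1148 to 1759 CPM, and 2 of 7 astrocyte markers, Slc1a3 and Slc1a2, were called lower. Pituitary markers were present in both states at 23.3 to 209 and 20.4 to 170 CPM, with none of 3 tested called. Of the remaining lists, hippocampal markers had 2 of 7 called higher, cerebellar and endothelial markers 1 each higher, oligodendrocyte markers 1 higher and 1 lower, amygdalar markers 1 lower, and neocortical, thalamic, striatal and microglial markers none. With the series covariate no gene of these marker lists was called. With the length and GC offset, beside 3.2% of all genes, 1 cerebellar and 1 astrocyte marker were called higher and no other marker was called. Slc1a3 and Slc1a2 were not called with the offset. None of these lists had a marker at 0 in every hypothalamic library, and their part in the member differences was not tested.

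The genes that serve these receptors were counted over lists of cofactors, enzymes and known responders. In the hypothalamus the chaperone and cochaperone list had 4 of 17 genes called higher and 3 lower in primiparous animals, with a median log2 fold change of 0.11 beside 0.01 for all genes. Over all tested genes 10.8% were called higher and 11.8% lower there. Fkbp4, the cochaperone that favours an active receptor complex, was higher at 258 ± 27.4 against 208 ± 8.20 CPM (SD, n = 8 each; log2 0.285, SE 0.05, edgeR adjusted p = 0.00208), and remained below the threshold with the length and GC offset (adjusted p = 0.0392). Cdc37, which loads kinases onto Hsp90, was higher (log2 0.235, adjusted p = 0.0242). Dnaja1, an Hsp40 protein (log2 -0.25, adjusted p = 0.00957), and the cyclophilin Ppid (log2 -0.24, adjusted p = 0.0154) were lower.

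Of 16 coactivators 3 were called, beside 22.6% of all genes. Among them 1 was called higher, the chromatin remodeller Smarca4 (log2 0.24, edgeR adjusted p = 0.00297), and 2 lower, the acetyltransferase Kat2b (log2 -0.31, adjusted p = 0.0314) and Ppargc1a, which encodes the PGC-1alpha partner of the estrogen-related receptors (log2 -0.24, adjusted p = 0.0255). Ppargc1a was at 55.3 ± 5.97 CPM in virgins and 47.4 ± 4.94 CPM in primiparous animals (SD, n = 8 each). The membrane receptor Paqr6, which binds progestins, was the single called gene of 7 tested in its list (log2 0.35, adjusted p = 0.0293). Of 9 tested genes for steroid synthesis and metabolism only Hsd17b12 was called, lower by log2 -0.24 (adjusted p = 0.00460).

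Responder genes were called at shares near the 22.6% of all genes. Among 11 tested estrogen and progesterone responsive genes, Gal, a neuropeptide gene that estrogen induces, was higher (28.7 ± 3.24 to 37.6 ± 7.77 CPM, edgeR adjusted p = 0.0167). The growth factor gene Igf1 was lower (7.29 ± 1.61 to 4.16 ± 1.24 CPM, adjusted p = 0.00522), as was the prolactin receptor gene Prlr (57.2 ± 5.71 to 48.0 ± 5.92 CPM, adjusted p = 0.0147), each as mean ± SD in 8 virgins and 8 primiparous animals. Of 20 tested corticosteroid responsive genes 3 were called, all lower, namely Pdk4 (log2 -0.39, adjusted p = 0.0297), Errfi1 (-0.24, adjusted p = 0.0208) and Klf9 (-0.22, adjusted p = 0.0225), and the list's median was -0.07 beside 0.01 for all genes, -0.18 with the series covariate and -0.15 with the length and GC offset. The median of that list was also negative in the other regions, at -0.13 in the amygdala, -0.17 in the hippocampus, -0.06 in the neocortex and -0.12 in the cerebellum, where none of its genes was called. Of 18 energy metabolism genes taken as targets of the estrogen-related receptors 1 was called higher, Mdh2 (0.15, adjusted p = 0.0422). Called lower were Idh3a (-0.18, adjusted p = 0.00874), Pdk4 again and Esrrg itself, which that list contains. These shares stand beside 22.6% of all genes. With the length and GC offset, beside 3.2% of all genes, 5 chaperone genes were called higher and none lower, 1 energy metabolism gene was called higher, and no other gene of these pathway lists was called. With the series covariate none was called. Outside the hypothalamus edgeR called none of these pathway genes in any region, and with the offset 1 chaperone gene was called higher in the cerebellum.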

How the data were processed

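RNA-seq of polyadenylated RNA was made with NEBNext Ultra libraries and single-end reads of 100 bases. Per the submitters' processing notes and the methods of the study, the authors used HISAT2 for alignment to mm10 and featureCounts for gene counts, so the deposited counts are whole numbers per gene without normalization. The authors' log2 table has values of log2(count / size factor + 4), within 5e-05 of that formula recomputed from the counts, and served for symbols (11929 genes, with 13351 from RefSeq, 16 from GENCODE and 1883 without one) and to check the filter.

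CPM used each library's total count, and RPKM the GENCODE M21 exon length. The authors counted with the mm10 annotation built into featureCounts, so these lengths may differ from those of the exons counted. edgeR 4.0.16 (quasi-likelihood, TMM) was fitted in R 4.3.3 over the 13016 genes that reached 5 CPM in 8 or more libraries. State was fitted per region, region pairs over all libraries, and each interaction over the libraries of the hypothalamus and the region compared. Benjamini-Hochberg adjustment ran over all tested genes. Esr2, below that filter, came from a fit of genes with at least 10 counts. limma 3.58.1 (voom), DESeq2 1.42.0, RLE size factors, the number series as covariate, a length and GC offset (splines with 4 degrees of freedom, 97.05% of genes with values) and single libraries left out were alternatives. Fits were tested on simulated data. The same animals gave all regions, so animal numbers pair regions but not states. In the 10 region pairs the median correlation of deviations was -0.01 to 0.10 for the same animal and -0.01 to 0.01 for others. No 2 libraries were identical. Counting intervals and the limit of 3 counts for a count of 0 cover counting error only.

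The 8 members and all gene lists were chosen with earlier results of these data known. All members are named, with the 3 genes of highest r for each, and the called genes of largest fold change in each list, up to 4 in the hypothalamus and 2 elsewhere. Some genes that this rule names are not reported here.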

Additional observations from a re-analysis of the deposited data

Results flagged for a closer look

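In 80 groups of 7 or 8 libraries, 4 single values stood far from the rest of their group, and chance alone sets apart about 1 group in 20. Esr1 was at 0.679 CPM in the cerebellum of primiparous 427, and Esr2 at 1.19 CPM in the hippocampus of the same animal. Esrra was at 63.3 CPM in the hippocampus of primiparous 413, the library with the high cerebellar markers, and Esrrg at 118 CPM in the cerebellum of virgin 4488.

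The difference between states departed between regions, by the interaction test of edgeR, for Esrra in hypothalamus against amygdala (log2 0.38) and for Nr3c1 against hippocampus (-0.26) and cerebellum (-0.31). For Esrrg it departed against hippocampus (-0.52) and cerebellum (-0.41). Without the hippocampal library of primiparous 413, of the pair against hippocampus Esrrg stayed called and Nr3c1 did not.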

How the results depend on the processing

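Of the state differences, 219 of 240 values under the alternatives kept their direction with no call gained or lost, and 16 changed sign, none of them called. DESeq2 gave no adjusted p for some members, and these values count as not called. In the hypothalamus 1 member was called in limma-voom and 0 with the series covariate or the length and GC offset, and 0 to 3 with 1 library left out, while leaving out cerebellar libraries gave 0 to 1. All-gene counts in the hypothalamus were 2939, and 3 with the series covariate and 417 with the offset. In the cerebellum they were 92, and 57 with the low filter, 505 in DESeq2, 0 with the series covariate and 435 with the offset. The cause was not tested.

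Sign changes with the series covariate were Esr2 (0.115), Nr3c1 (0.0598) and Esrrg (-0.122) in the amygdala, Pgr (-0.114) and Nr3c2 (0.0238) in the hippocampus, and Esrrb in the neocortex (-0.238) and cerebellum (0.0364). With the offset they were Esrrb in the hypothalamus (-0.00484), Pgr (-0.0433) and Esrrg (-0.0498) in the amygdala, Pgr (-0.0087) and Nr3c1 (-0.0102) in the hippocampus, Esr1 (0.023) and Esrrb (-0.0265) in the neocortex, and Esrrb in the cerebellum (0.0399). With the low filter it was Pgr in the amygdala (-0.00128). Leaving out 1 library gave ranges across 0 for Esr1 (-0.0257 to 0.167), Pgr (-0.0405 to 0.0567), Nr3c1 (-0.049 to 0.0167) and Esrrg (-0.0384 to 0.0851) in the amygdala, Pgr (-0.0144 to 0.0611) and Nr3c2 (-0.0506 to 0.00903) in the hippocampus, Esr1 (-0.205 to 0.112) and Esrrb (-0.0244 to 0.116) in the neocortex, and Esrrb in the cerebellum (-0.0621 to 0.0328).

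Between regions 311 of 320 values kept side and direction. Esrrb in hypothalamus against neocortex, not called, changed sign with the low filter (-0.0175), limma-voom (-0.0155) and the replicate block (-0.00865). For the interactions the number of members called was 0 against the amygdala with the low filter and 0 with the replicate block and offset. Against the hippocampus it was 1 with the low filter, 1 with the replicate block, 0 with block and offset and 1 without the hippocampal library of primiparous 413, an alternative chosen after seeing the data. Against the cerebellum it was 0 with block and offset. Shares of all genes called under the low filter, the block and the offset are not given here for the interactions. These member counts are therefore not read against a background. With block and offset Nr3c1 against amygdala (0.085) and Esrrb against neocortex (-0.000352) changed sign. Depth limits Esr2 in all regions and Esr1 in the cerebellum.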

Other observations

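Within a library, the RPKM of Esrrg over that of Esrra gives the balance of these estrogen-related receptor genes. Its mean was 0.713 ± 0.136 in the cerebellum (SD, n = 15), 0.523 ± 0.106 in the hypothalamus (n = 16), 0.298 ± 0.0871 in the neocortex (n = 16), 0.272 ± 0.0471 in the hippocampus (n = 15) and 0.238 ± 0.0496 in the amygdala (n = 15). In the hypothalamus the lowest, median and highest ratios were 0.439, 0.612 and 0.700 in virgins and 0.352, 0.444 and 0.576 in primiparous animals. In the hippocampus they were 0.199, 0.239 and 0.289 in virgins and 0.238, 0.317 and 0.340 in primiparous animals. Those of the neocortex were 0.217, 0.334 and 0.452 in virgins and 0.159, 0.242 and 0.394 in primiparous animals. The amygdala had 0.148, 0.233 and 0.258 against 0.211, 0.252 and 0.372, and the cerebellum 0.622, 0.685 and 1.09 against 0.524, 0.738 and 0.818. The ratio was not tested between states.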
